A study of Arabidopsis thaliana with 22 samples.

Results

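The brassinazole (BRZ) response of *baf1* seedlings was measured by QuantSeq, which sequences the 3′ ends of polyadenylated transcripts, as the difference between 4 libraries of *baf1* grown with 250 nM BRZ and 4 libraries of *baf1* grown with the solvent alone. The series holds 22 libraries of 7-day-old whole seedlings of Col-0 (WT), *baf1* and *bes1-D*, each on half-strength LS medium with sucrose, with DMSO or BRZ. The *baf1* mutant is a single T-DNA line (GABI_001F08) in the F-box gene *BAF1*, and *bes1-D* is a gain-of-function mutant of *BES1* in the Col-0 background. All 8 *baf1* libraries come from this line, and by their labels they differ only in BRZ and replicate number. Of 32833 genes in the deposited table, 16382 averaged 10 or more normalized reads across these 8 libraries and were tested. Values are read numbers that the authors adjusted to a common library size, and they are called normalized reads here.

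BRZ blocks the synthesis of brassinosteroids (BRs), the steroid hormones that drive cell elongation. BRs are perceived at the cell surface by the receptor kinase BRI1, the signal inactivates the GSK3-like kinase BIN2, and the transcription factors BES1 and BZR1 then accumulate in the nucleus in active form. These factors repress genes of BR synthesis, including *DWF4* and *CPD*, and activate many genes of cell wall loosening and growth, so a plant short of BR makes more of the synthesis transcripts and fewer of the growth transcripts. BAF1 is an F-box protein, one of a family that selects other proteins for ubiquitination.

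The *baf1* libraries had an estimated depth of 3.29e+06 to 4.04e+06 reads without BRZ and 2.74e+06 to 4.39e+06 with BRZ. *BAF1* itself stood at 12.9, 11.03, 5.8 and 9.35 normalized reads in *baf1* without BRZ and at 3.42, 2.47, 0.0627 and 13.5 with BRZ, against 218 to 399 in the 7 WT libraries, so all *baf1* libraries lay far below WT, as their labels say, and the gene fell short of the minimum mean in *baf1*. BRZ250 replicate 4, the shallowest *baf1* library, stood apart. It scored 55.7 on the first principal component (28.1% of the variance), against -20.9 to 0.511 in the other 7, and 204 genes were more than 2-fold below all other *baf1* libraries in it, against 9 to 44 genes in each of the others. Root markers summed to 562 to 735 normalized reads without BRZ and 588 to 638 with BRZ, and photosystem, antenna and Rubisco transcripts to 260750 to 273730 and 262820 to 276540, and for both lists the ranges of the groups overlapped. Seed storage and oil body transcripts, which are made in maturing seeds, varied more, with sums of 482, 4.44, 30.3 and 23 without BRZ and 136, 726, 161 and 1725 with BRZ. Nothing in the labels says that replicates were separate cultures, so P-values measure the spread between these libraries, which may be technical.

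**Figure D1:**
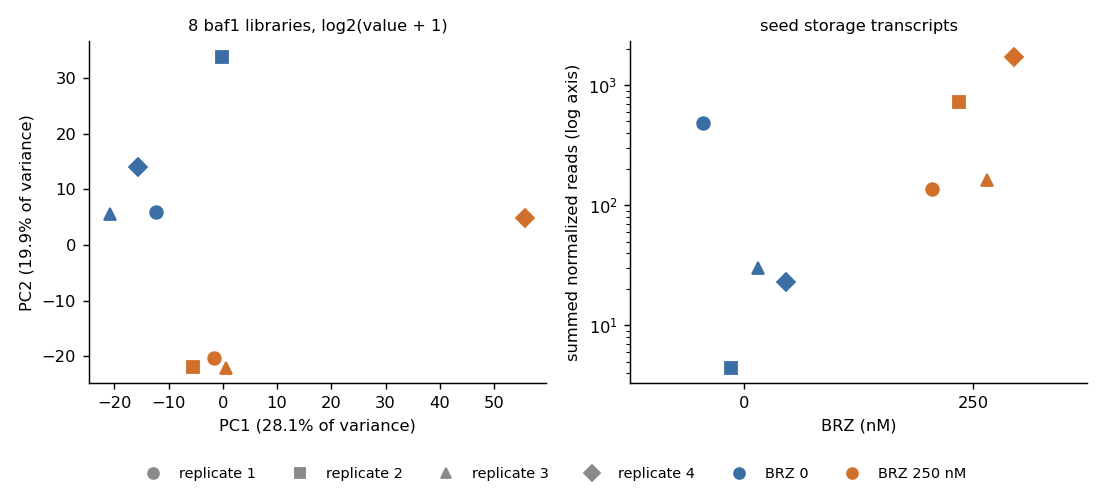
Left, the 8 *baf1* libraries on the first 2 principal components of log2(normalized reads + 1), where BRZ250 replicate 4 lies alone at 55.7 on the first component while the second separates the other BRZ libraries from those without BRZ. Right, summed normalized reads of 10 seed storage and oil body genes per library on a log axis, from 4.44 to 482 without BRZ and from 136 to 1725 with BRZ.

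BRZ changed 295 genes in *baf1*, or 1.8% of those tested, at an adjusted P-value under 0.05 (limma on log2(normalized reads + 1), Benjamini-Hochberg), and genes past this threshold are referred to as called. Of these, 150 were higher under BRZ (0.916% of those tested) and 145 were lower (0.885%). The median log2 fold change was 0.68 among the genes that rose, -0.65 among those that fell and 0.006 over all genes tested. The response was mostly of moderate size, since 31 genes rose and 24 fell by more than 2-fold. In 279 of the 295 genes the BRZ and control libraries did not overlap, as against 7.72% of all genes tested. The study used a looser criterion, a fold change above 1.1 with an unadjusted P-value under 0.05, with statistics from the PoissonSeq package. With limma P-values in place of those, 2042 genes (12.5%) passed that criterion. The limit on fold change removed none of the genes with an unadjusted P-value under 0.05. Without BRZ250 replicate 4, 557 genes were called, among them 292 of the 295.

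The transcripts of BR synthesis rose. Of 7 enzymes on the list, 6 had enough reads to be tested, and 4 of them were called, all higher under BRZ (background 0.916%), with a median log2 fold change of 1.07 over the 6. *DWF4*, a side-chain hydroxylase that sets the rate of the pathway, had 91.9, 92, 76.2 and 78.6 normalized reads without BRZ and 248, 219, 239 and 285 with BRZ. Every BRZ library was more than 2-fold above every control library, and the mean rose 2.92-fold from 84.7 ± 8.45 to 248 ± 27.6 (SD, n = 4). Its log2 fold change was 1.53 ± 0.125 (SE), with an adjusted P of 2.21e-06 (limma). *BR6OX2*, which catalyses the last oxidations that give brassinolide, rose the most of the list. Its values were 67.7, 90.9, 76.3 and 56.6 without BRZ and 323, 178, 345 and 295 with BRZ, a 3.92-fold rise in the mean (log2 fold change 1.93 ± 0.185, adjusted P = 1.12e-05, limma). The lowest BRZ library of *BR6OX2*, replicate 2, was still well above the highest control library.

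*CPD*, a cytochrome P450 of the pathway whose loss gives a BR-deficient dwarf, changed less. It had 276, 280, 338 and 286 normalized reads without BRZ and 472, 447, 502 and 398 with BRZ, a 1.54-fold rise (log2 fold change 0.62 ± 0.105, adjusted P = 0.0033, limma) with no overlap between groups. *CYP90D1*, one of a pair of related P450 enzymes of the pathway, rose from 18, 11.9, 14.2 and 17.8 to 34, 36.1, 36.3 and 48.4 (adjusted P = 0.00585, limma). *ROT3*, the other of that pair, had 47.4, 10.9, 18.6 and 25.6 normalized reads without BRZ and 50.1, 45, 49.6 and 26.9 with BRZ and was not called (log2 fold change 0.87, adjusted P = 0.256, limma), with 1 control library as high as the treated ones. Without BRZ250 replicate 4 it was called at an adjusted P of 0.0414. *DET2*, the steroid 5α-reductase early in the pathway, gave a log2 fold change of 0.13 ± 0.18 (adjusted P = 0.834, limma) and its groups overlapped. *BR6OX1* had at most 2.58 normalized reads in any *baf1* library and was not tested.

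**Figure D2:**
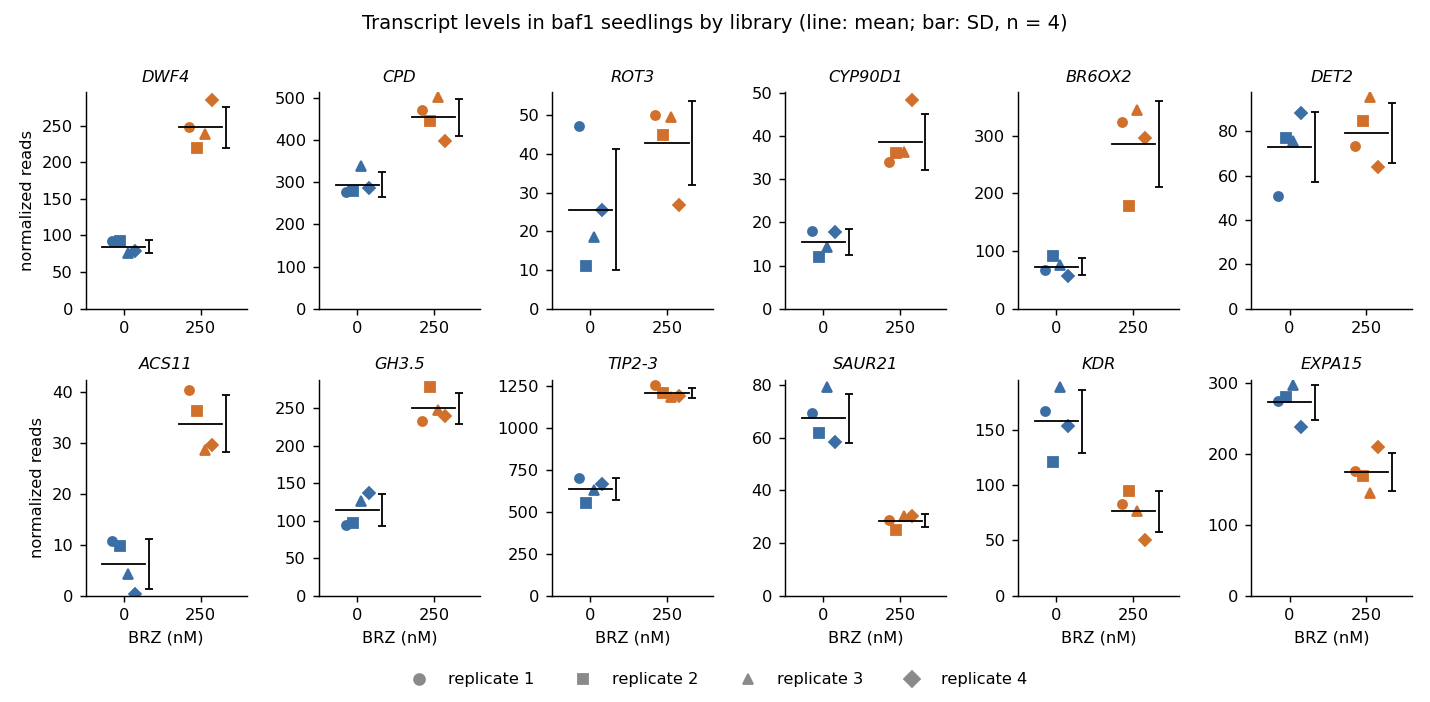
Normalized reads of 12 genes in each *baf1* library at 0 and 250 nM BRZ, with symbols for replicate numbers, the mean as a line and the SD (n = 4) as a bar. *DWF4* and *BR6OX2* lie 2.92-fold and 3.92-fold higher on average under BRZ with no overlap, *ROT3* and *DET2* overlap, and *SAUR21*, *KDR* and *EXPA15* lie lower in every BRZ library.

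The letters that BES1 and BZR1 are known to bind, the BR response element (BRRE, CGTGTG or CGTGCG) and the G-box (CACGTG), were searched on both strands in the 500 bases before the annotated start of each gene (RefSeq annotation of TAIR10.1, a build whose nuclear chromosomes are those of TAIR10). A BRRE was present before 23 of 150 genes called higher (15.3%), 13 of 145 called lower (8.97%) and 11.8% of all 16380 tested genes with such a window, and a G-box before 12%, 9.66% and 10.2%. These shares are a description and were not tested. The following stretches lie before 3 genes that rose, shown because each holds a BRRE, with BRRE and G-box letters of either strand in capitals (CGCACG and CACACG are the BRRE read on the other strand). In *BEH2* the G-box letters overlap those of a BRRE in both of the composite runs.

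DWF4, chr3:18817836-18817885, minus strand, 480 to 431 bases before the start: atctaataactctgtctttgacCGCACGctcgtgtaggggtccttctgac
ACS11, chr4:4886782-4886861, plus strand, 180 to 101 bases before the start: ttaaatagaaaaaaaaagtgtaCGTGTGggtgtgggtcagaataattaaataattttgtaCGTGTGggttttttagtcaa
BEH2, chr4:17334396-17334505, minus strand, 150 to 41 bases before the start: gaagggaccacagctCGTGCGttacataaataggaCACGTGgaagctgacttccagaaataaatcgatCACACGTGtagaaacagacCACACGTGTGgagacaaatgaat

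The stretch before *DWF4* holds 1 BRRE, that before *ACS11*, an ethylene synthesis gene described below, holds 2, and that before *BEH2* holds 4 BRREs and 3 G-boxes. No BRRE or G-box letters stood in the 500 bases before *CPD*, *CYP90D1* or *BR6OX2*, which says only that these letters are not in that window.

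Downstream of the hormone, few transcripts of the signalling machinery were called. None of the 15 tested genes for receptors, kinases and phosphatases was called (background 1.8%), with log2 fold changes from -0.29 to 0.33. At that background a list of this size can hold no call, so its absence does not show that these genes were unchanged. *BES1* had 470, 484, 510 and 507 normalized reads without BRZ and 493, 439, 447 and 364 with BRZ (log2 fold change -0.18 ± 0.101, adjusted P = 0.482, limma), and its groups overlapped. Of the 6 members of the BES1 and BZR1 family, 1 was called (background 1.8%). This gene, *BEH2*, rose from 248, 196, 196 and 218 to 315, 270, 328 and 282 (log2 fold change 0.48, adjusted P = 0.0347, limma). None of 19 tested genes of BES1 degradation and autophagy was called, nor any of 9 genes of sterol synthesis or of 7 genes of BR inactivation (background 1.8%). Their medians were 0.07, -0.13 and -0.18. Among the last, *BAS1*, which inactivates BRs by hydroxylation, had means of 29.3 and 14.8 normalized reads without and with BRZ and did not pass the test.

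Of 13 BR-regulated helix-loop-helix factors, 10 were tested and 1 was called, against a background of 1.8%. *KDR*, an atypical factor that promotes cell elongation, fell from 168, 121, 189 and 154 to 83, 95, 77.1 and 50.2 normalized reads (log2 fold change -1.06 ± 0.181, adjusted P = 0.00371, limma), and every BRZ library lay below every control library. *BEE1*, a BR-induced growth regulator, had 60, 57.6, 46.8 and 51.8 without BRZ and 35.1, 47.2, 22.8 and 14.4 with BRZ, which did not pass the test (adjusted P = 0.0904, limma). The PACLOBUTRAZOL RESISTANCE genes, which code for relatives of *KDR*, were low, with log2 fold changes of -0.77 for *PRE1*, -0.72 for *PRE2* and 0.86 for *PRE3*, none called. *BEE2*, *HBI1*, *IBH1* and *IBL1* gave log2 fold changes of 0.20, 0.27, 0.31 and 0.16 and were not called either. *BEE3* had 83.4, 89.8, 113 and 106 without BRZ and 141, 145, 138 and 44.9 with BRZ, so that BRZ250 replicate 4 alone lay low. Its log2 fold change was 0.13 with that library (adjusted P = 0.904, limma) and 0.54 without it (adjusted P = 0.0235). *PRE4*, *PRE5* and *CESTA* were below the minimum mean.

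**Figure D3:**
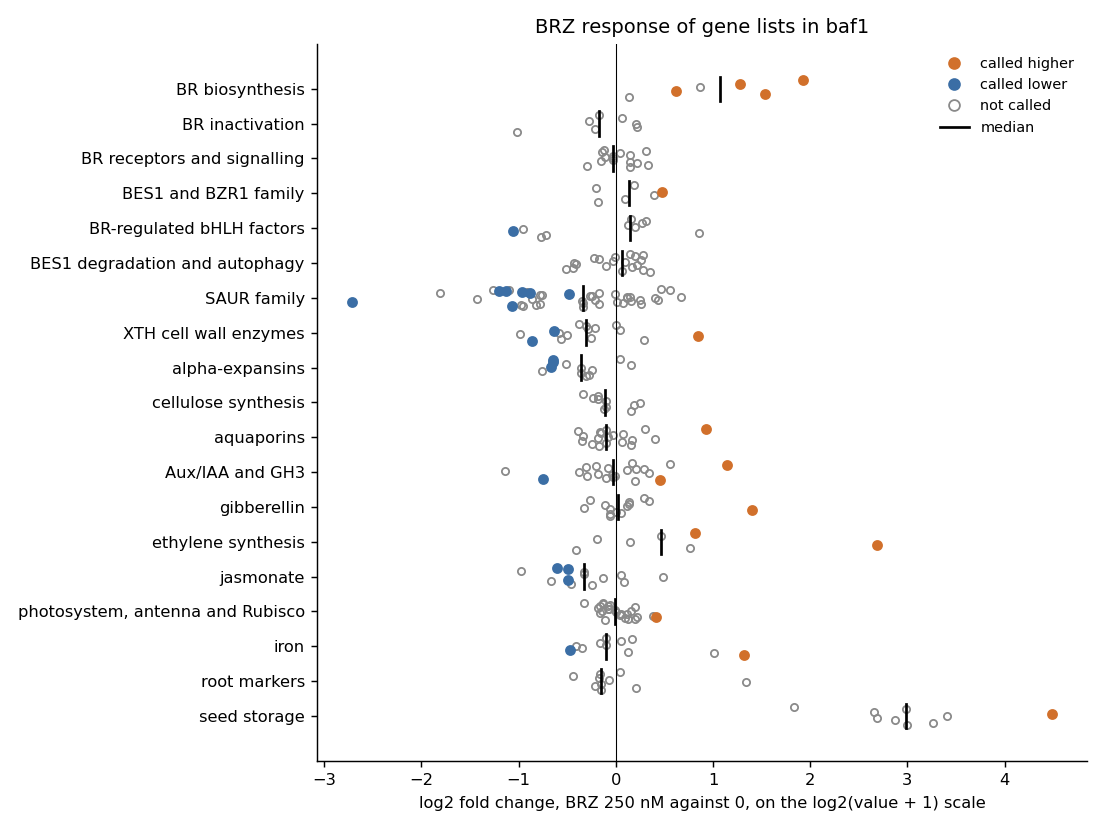
Log2 fold change under BRZ of every tested member of 19 gene lists in *baf1*, with filled points for called genes and a line at the list median. BR biosynthesis lies to the right (median 1.07, 4 of 6 called), the SAUR genes and alpha-expansins extend to the left with 7 and 3 genes called lower, and BR receptors and root markers lie around 0 with none called.

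The SAUR genes code for small auxin-induced proteins that promote cell expansion, and of 41 tested, 7 fell (background 0.885%) and none rose, with a median of -0.34. *SAUR10* fell the furthest of all non-overlapping genes, from 27.2, 14.9, 22.9 and 19.6 to 7.32, 2.045, 2.08 and 0.55 normalized reads (log2 fold change -2.71 ± 0.483, adjusted P = 0.0047, limma). All 4 BRZ libraries of *SAUR10* were under the lowest control library. *SAUR21* fell 2.36-fold, from 69.6, 62, 79.5 and 58.5 to 28.9, 25, 30.2 and 30.2, with a narrow spread in the BRZ group. *SAUR16* and *SAUR22* fell by 0.88 and 1.13 on the log2 scale, and *SAUR14*, *SAUR20* and *SAUR62* were called lower as well. *SAUR20*, *SAUR21* and *SAUR22* are near-identical neighbours, so that reads may be shared among them.

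Alpha-expansins, which loosen the wall at acid pH, gave 3 called genes of 12, all lower (background 0.885%), with a median of -0.36. *EXPA15* fell from 274, 281, 297 and 238 to 176, 169, 145 and 209, *EXPA11* from a mean of 152 ± 11.1 to 97.4 ± 7.73 (SD, n = 4), and *EXPA8* from 99 ± 10.2 to 62.5 ± 8.5. The enzymes that cut and rejoin xyloglucan (XTH) moved both ways, with 1 of 15 called higher and 2 called lower (background 0.916% and 0.885%). *XTH15* rose from 95, 88.8, 139 and 111 to 184, 210, 182 and 196 (adjusted P = 0.00306, limma). *XTH4* fell from 1589, 1265, 1591 and 1520 to 1034, 1007, 962 and 445, where BRZ250 replicate 4 was by far the lowest. Its log2 fold change was -0.86 with that library and -0.57 without it. *XTH19* fell by 0.64 on the log2 scale (adjusted P = 0.0395, limma). None of the 10 cellulose synthesis genes was called (background 1.8%). Of 19 aquaporins, 1 was called (background 1.8%). *TIP2-3*, a water and ammonia channel of the vacuole membrane, rose from 702, 552, 630 and 668 to 1256, 1211, 1185 and 1195, a 1.9-fold change with a very narrow spread under BRZ (log2 fold change 0.93 ± 0.0896, adjusted P = 1.12e-05, limma).

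The lists for ethylene, auxin, gibberellin and jasmonate gave 1 or a few called genes each, where the background over all genes tested was 1.8%. In ethylene synthesis, 2 of 7 tested genes rose (background 0.916%) and none fell. *ACS11*, an ACC synthase, went from 10.7, 9.76, 4.2 and 0.2465 normalized reads to 40.5, 36.4, 28.7 and 29.6 (log2 fold change 2.69 ± 0.523, adjusted P = 0.0092, limma), the second-largest rise without overlap. Its control mean of 6.22 was under the minimum of 10, so it was tested only through its BRZ libraries (mean 33.8). *ACO5*, an ACC oxidase by its RefSeq synonym, rose from 57.3 ± 13.5 to 99.3 ± 5.34 (SD, n = 4). Among 21 Aux/IAA and GH3 genes, *GH3.5*, which conjugates auxin to amino acids, rose 2.2-fold, from 94, 97.4, 127 and 137 to 233, 279, 248 and 240 (adjusted P = 0.000134, limma). *IAA2* rose by 0.46 on the log2 scale with overlapping groups, and *IAA3*, a repressor of auxin responses, fell from 126, 117, 144 and 132 to 68.6, 82.5, 83.9 and 72.1. *PILS5*, an auxin carrier of the endoplasmic reticulum, rose by 0.50 (adjusted P = 0.0369, limma) among 9 auxin transport genes.

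*GA20ox2*, which catalyses late steps of gibberellin synthesis, rose 2.53-fold, from 16, 6.67, 25 and 24.4 to 54.5, 30.5, 55.7 and 41.9, and was the only called gene of 14 tested in that pathway (background 1.8%). Jasmonate genes gave 3 called lower of 13 (background 0.885%), with a median of -0.32, on a list that does not hold *LOX3*, described below. *AOC2* and *OPR3*, enzymes of jasmonate synthesis, fell from means of 457 to 324 and from 138 to 91, and *JAZ9*, a repressor of jasmonate responses that jasmonate itself induces, from 187 to 133. Of the enzymes of flavonoid synthesis, *FLS1*, which makes flavonols, rose 1.58-fold (adjusted P = 0.00397, limma), the only gene called among 10 tested (background 1.8%). In iron homeostasis, *IRT1*, the root iron importer, rose from 18.1, 8.8, 21.4 and 20.1 to 59.6, 40.7, 50.4 and 25.7, while *FER1*, the iron storage protein ferritin, fell from 625 ± 26.3 to 450 ± 39.5 (SD, n = 4). The other 9 iron genes tested were not called (background 1.8% called). Of 25 photosystem, antenna and Rubisco genes, 1 was called (background 1.8%), the antenna gene *LHCB2.2*, at 1.34-fold higher. Of the Rubisco small subunit genes that list holds *RBCS1A* (log2 fold change -0.13) and not *RBCS1B*, *RBCS2B* or *RBCS3B* (-0.35, -0.60 and -0.48), of which *RBCS2B* was called lower. No gene was called among 22 glucosinolate, 11 chlorophyll synthesis, 10 light regulator, 13 clock, 12 phosphate starvation, 10 wax and 10 root marker genes (background 1.8%). At that background lists of this size can hold no call, so these lists are not shown to be unchanged. The wax genes had a median of -0.32. Without BRZ250 replicate 4, their median was -0.14, and 2 wax genes and 1 chlorophyll synthesis gene were called lower.

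Of 9 tested seed storage and oil body genes, *SESA3* was called (background 1.8%), at 92.6, 0.159, 0 and 0.237 normalized reads without BRZ and 28.2, 141, 25.3 and 313 with BRZ, with overlapping groups. All 9 were higher on average under BRZ, with a median of 2.98. Apart from replicate 1 at 482, the control sums of the list were 4.44 to 30.3, against 136 to 1725 with BRZ. The list thus passed the minimum mean mainly through the BRZ libraries, and the filter favours a shared rise. In WT 2 genes of the list passed it, and in *bes1-D* 0. Without BRZ, 9 of the 10 genes of the list were under 0.5 normalized reads in replicate 2 and none were in replicate 1, and the part of these transcripts in other changes was not tested.

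Among genes on no list, the 10 largest rises without overlap also included *AT4G28703*, which codes for a cupin, at 4.33, 3.35, 6.14 and 0.181 normalized reads without BRZ and 27, 16, 35.7 and 27.4 with BRZ. *AT5G01740*, a member of the NTF2 family, had the smallest adjusted P of the whole response (7.24e-08, limma). It went from 195, 249, 238 and 220 to 857, 654, 796 and 708 (log2 fold change 1.74 ± 0.109), with no BRZ library within 2-fold of a control library. *AT4G33550*, of the lipid-transfer and 2S albumin superfamily, rose 3.39-fold from 51.4 ± 10.5 to 174 ± 21.7 (SD, n = 4). *AT5G52050*, a MATE efflux protein, rose 2.79-fold, *AT5G07095*, annotated as a small nucleolar RNA, rose 3.65-fold, *U2.2*, which codes for a spliceosomal RNA, rose 4.09-fold, and *AT3G24880*, annotated as a Helicase/SANT-associated DNA-binding protein, rose 3.77-fold from a mean of 4.84. *AT4G28703*, *U2.2* and *AT3G24880* had control means under 10 (3.5, 5.06 and 4.84). They passed the minimum mean only through their BRZ libraries, so the filter favours a rise in them.

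The largest falls after *SAUR10* were led by *AT5G35525*, a PLAC8 family protein, with 53.6, 55.3, 58.9 and 53.7 normalized reads without BRZ and 10.3, 10.09, 16.1 and 10.4 with BRZ (log2 fold change -2.17 ± 0.225, adjusted P = 2.72e-05, limma). The 2 groups were each narrow and far apart. *GASA5*, of the gibberellin-regulated GASA family, fell 3.51-fold from 29.1 ± 5.15 to 8.28 ± 4.57 (SD, n = 4), and *AT4G01380*, a plastocyanin-like protein, 3.24-fold. *LOX3*, a lipoxygenase of jasmonate synthesis, fell from 67.8, 33.9, 41.1 and 39.2 to 20.2, 16.4, 10.5 and 21.1. The dark-inducible gene *DIN11* fell 3.01-fold, *AT2G15020*, an uncharacterized protein, fell by 1.59 on the log2 scale, and the berberine bridge enzyme relative *AT5G44440* fell 2.87-fold. *AT3G42800* (AF-like) and *AT2G28780* (annotated as an efflux pump subunit) fell 2.62-fold and 2.53-fold. *SAUR10*, *GASA5*, *DIN11* and *AT3G42800* had BRZ means under 10 (3, 8.28, 6.62 and 9.63). They passed the minimum mean only through their control libraries, so the filter favours a fall in them.

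Each of the 8 libraries was left out in turn for the 52 called genes that the naming rule chose, which does not include *SAUR14*, *SAUR20* or *SAUR62*. Of the 52, 30 stayed called in all 8 fits. *SAUR10* stayed called in 7 and was under the minimum mean without BRZ0 replicate 1. The other 21 lost the call without at least 1 library, with adjusted P-values up to 0.18. They are *BEH2*, *XTH4*, *XTH19*, *EXPA8*, *IAA2*, *PILS5*, *GA20ox2*, *ACO5*, *AOC2*, *OPR3*, *JAZ9*, *LHCB2.2*, *FER1*, *IRT1*, *SESA3*, *SAUR22*, *U2.2*, *AT3G24880*, *DIN11*, *LOX3* and *AT3G42800*. By library, 17, 15, 13 and 16 of these calls were lost without BRZ0 replicate 1, 2, 3 and 4, and 9, 7 and 13 without BRZ250 replicate 1, 2 and 3. Without BRZ250 replicate 4, *AT3G24880* was under the minimum mean and not tested, and none of the other calls was lost.

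To see which of these changes other genotypes shared, the same fit was made in WT (3 BRZ and 4 control libraries) and *bes1-D* (3 and 4), which have no library in common with *baf1*. In WT, 98 of 16194 genes were called (0.605%), and in *bes1-D* 94 of 16309 (0.576%). Both had 3 BRZ libraries against 4 in *baf1*. The WT BRZ libraries had estimated depths of 4.71e+06, 2.48e+06 and 2.09e+06 reads. Those of *bes1-D* had 2.99e+06 to 4.67e+06, and those of *baf1* 2.74e+06 to 4.39e+06. The part of library number and depth in the calls was not tested. The counts and the overlaps of called genes therefore do not show a weaker response in WT or *bes1-D*. The genes called in *baf1* moved the same way in WT in 283 of 294 cases (96.3%), with median log2 fold changes there of 0.47 for those that rose in *baf1* and -0.50 for those that fell. Both lists held 67 genes, 22.8% of the *baf1* list and 69.1% of the WT list, and all 67 had the same direction. In *bes1-D* the direction was shared in 212 of 288 cases (73.6%), with medians of 0.22 and -0.17. There 12 genes were called in both, 4.17% of one list and 12.9% of the other, and all 12 had the same direction. The genes called in *baf1* were chosen on *baf1* libraries, so their fold changes in *baf1* are favoured over those in the other genotypes. In the reverse view, 96 of 97 genes called in WT and tested in *baf1* moved the same way in *baf1*. For genes called in *bes1-D* it was 84 of 93. No share over all genes tested is given to set beside these. WT BRZ0 replicate 5 lay apart from the other WT controls in some genes. Its values were 33.6 for *BEE3* (others 107 to 120), 676 for *XTH4* (others 1462 to 1918) and 96.2 for *KDR* (others 158 to 197). In these, *baf1* BRZ250 replicate 4 was also the lowest of its group. For *DWF4* and *BR6OX2*, WT BRZ0 replicate 5 was within the others' range. The genes shown here were picked on their values, and the part of this library in the WT fold changes was not tested.

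**Figure D4:**
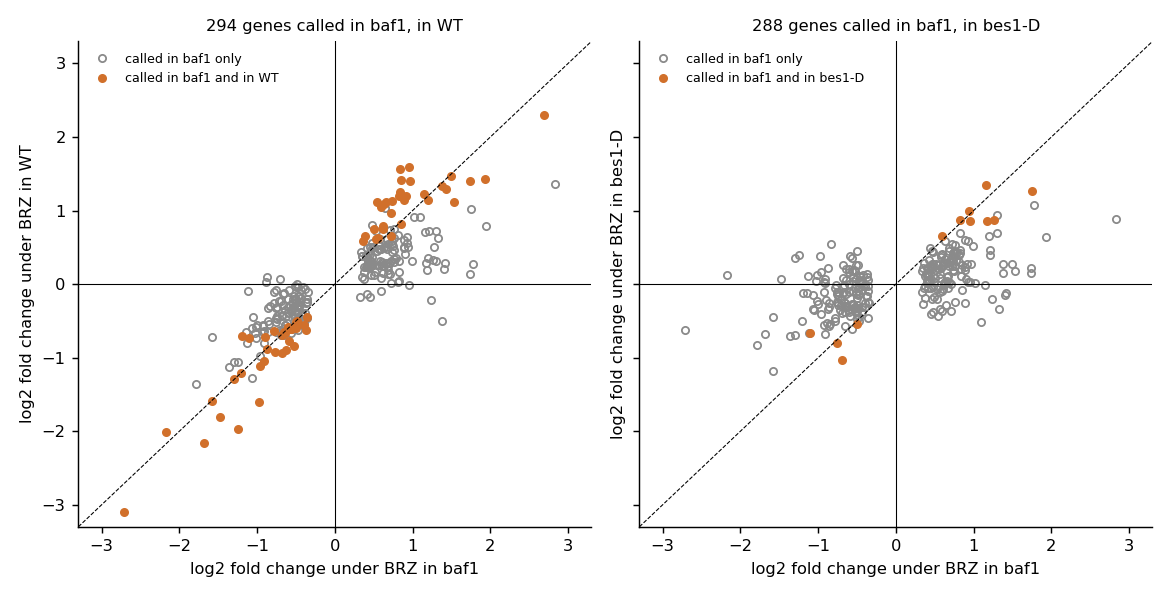
Log2 fold change under BRZ of the genes called in *baf1* (horizontal axis) against their log2 fold change in WT (left, 294 genes) and in *bes1-D* (right, 288 genes), with filled points for genes called in both genotypes and a dashed line of equal change. In WT 283 genes lie in the quadrants of shared direction, with medians of 0.47 and -0.50 against 0.68 and -0.65 in *baf1*, whereas in *bes1-D* 212 do and the points lie closer to 0 on the vertical axis.

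The BRZ responses of *baf1* and WT were then compared directly as an interaction. No gene of 16315 was called (0%), with a smallest adjusted P of 0.795 (limma), while 944 genes (5.79%) had an unadjusted P-value under 0.05. The 4 BR synthesis genes called in *baf1* gave differences, *baf1* minus WT, of 0.42 ± 0.201 for *DWF4*, 0.51 ± 0.275 for *BR6OX2*, -0.12 ± 0.148 for *CPD* and 0.77 ± 0.37 for *CYP90D1* (SE). None passed the adjusted threshold, which does not show that the responses were equal. The genes with the smallest unadjusted P were *WRKY20*, *BCAT-2* and *SIP2*, whose response was more negative in *baf1* by 1.18, 1.36 and 0.54 on the log2 scale, and *AT1G66100*, *AT4G38060* and *BAT1*, more positive by 0.63, 0.74 and 0.63, at unadjusted P-values from 0.00018 to 0.000799. *BAT1*, an acyltransferase that inactivates BRs, had 257, 252, 244 and 285 normalized reads in *baf1* without BRZ and 221, 211, 249 and 238 with BRZ. Its log2 fold change was -0.18 in *baf1*, not called (adjusted P = 0.532, limma), and -0.81 in WT, where it was called (adjusted P = 0.0048, limma). *WRKY20*, a transcription factor gene, and *BCAT-2*, a branched-chain amino acid aminotransferase gene, had log2 fold changes of -0.52 and -0.83 in *baf1* and 0.66 and 0.52 in WT, none of them called.

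*SIP2*, an enzyme of raffinose breakdown, was called in *baf1*. It fell from 1111, 1315, 1312 and 1206 to 875, 696, 808 and 734 (adjusted P = 0.00074, limma), and in WT its log2 fold change was -0.13.

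Against *bes1-D*, the BRZ response differed in 28 of 16362 genes (0.171%), 7 with a more positive and 21 with a more negative response in *baf1*, and 23 of the 28 were called in *baf1* itself. All 28 had the same sign in WT as in *baf1*, and 23 had the opposite sign in *bes1-D*, where their log2 fold changes ran from -0.59 to 0.66 and 1 gene was called, *AT3G15115* (0.62), named here after its values were seen. The 28 were chosen for a difference between *baf1* and *bes1-D* in these same libraries. That choice favours calls in *baf1* and weak or opposite changes in *bes1-D*. *AT5G01740* was at 64.9 to 81.6 normalized reads in *bes1-D* without BRZ and at 66.6 to 92.6 with BRZ, as against 195 to 249 and 654 to 857 in *baf1*. Its difference in response was 1.58 ± 0.186 (adjusted P = 5.94e-05, limma). *DWF4* showed the same pattern, with 27.4 to 37.7 normalized reads in *bes1-D* without BRZ and 23.1 to 47.2 with BRZ, so that all *bes1-D* libraries lay below all libraries of *baf1*. The difference of 1.36 ± 0.266 passed the threshold (adjusted P = 0.0275, limma) and lost it in 7 of 15 fits that left out 1 library (*baf1* BRZ0 replicate 1, 3 or 4, *baf1* BRZ250 replicate 1 or 3, and *bes1-D* BRZ0 replicate 3 or 4), with adjusted P-values up to 0.0836. *CPD* stood at 94.9 to 128 and 98.1 to 123 in *bes1-D*, and its difference of 0.62 ± 0.176 was not called (adjusted P = 0.215, limma).

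*AT5G35525* fell in *baf1* and had 44.8 to 81.6 normalized reads in *bes1-D* without BRZ and 60.9 to 79.2 with BRZ, a difference in response of -2.29 ± 0.299 (adjusted P = 0.000262, limma). *AT1G66100*, a thionin, which is a small antimicrobial protein, fell in *baf1* from 740, 613, 661 and 582 to 302, 331, 330 and 350, and had 605 to 714 without and 739 to 925 with BRZ in *bes1-D* (difference -1.37 ± 0.146, adjusted P = 1.81e-05, limma). *AT5G40450*, annotated as an A-kinase anchor-like protein, fell 2.02-fold in *baf1*, from 7442, 7574, 6027 and 6734 to 3994, 2949, 2960 and 3873, and was at 10340 to 14460 and 12280 to 13210 in *bes1-D*. *AT4G29905*, an uncharacterized protein, rose in *baf1* from 1695, 1572, 1745 and 1760 to 2375, 2458, 2383 and 2024, with 1450 to 1694 and 1014 to 1345 in *bes1-D*. The other genes of the 28 that belong to a list were *EXPA11* and *AOC2*, with more negative responses in *baf1*, and *GH3.5*, with a more positive one (1.15 on the log2 scale). The count and its balance depended on single libraries. Without *baf1* BRZ250 replicate 4 it was 179, with 113 more positive and 66 more negative in *baf1*, without *bes1-D* BRZ250 replicate 1 it was 41, with 24 and 17, and without *bes1-D* BRZ0 replicate 3 it was 8, with 2 and 6.

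**Figure D5:**
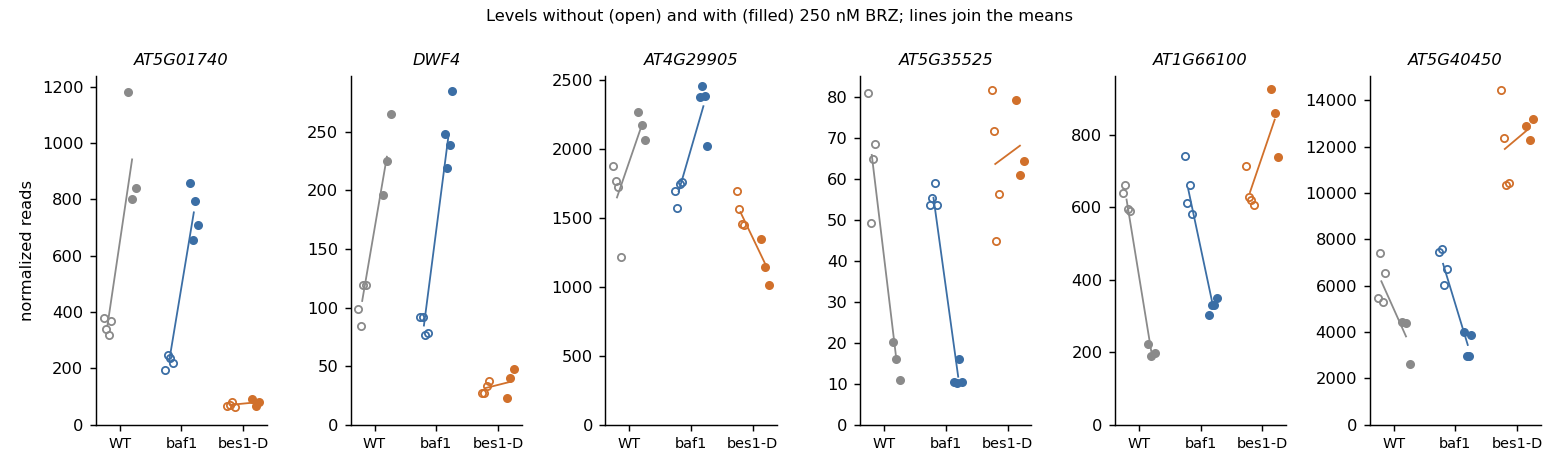
Normalized reads of 6 genes in each WT, *baf1* and *bes1-D* library without BRZ (open) and with 250 nM BRZ (filled), with lines that join the group means. In WT and *baf1* the 3 genes on the left rise and the 3 on the right fall, whereas in *bes1-D* the means of *AT5G01740* (71 and 79.5) and *DWF4* (31.4 and 36.7) stay low and *AT5G35525* stays near 64 and 68.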

How the data were processed

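QuantSeq 3′ libraries of whole 7-day-old seedlings were sequenced by the authors as single-end reads. Trimming and alignment to TAIR10 were done in Lexogen's QuantSeq FWD pipeline on BlueBee. The submitters' processing notes name STAR, HTSeq and edgeR. The authors deposited 1 table with a normalized signal value for every gene in each library (TMM in its name), whose values are not whole numbers and whose columns sum to nearly the same total, so no count model was fitted and 0 per-sample columns were left out. Depth was estimated from the spacing of low values, which recovers relative depth only as far as the values follow a quantile adjustment. Reads carry no molecular identifiers.

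Genes with a mean of at least 10 over the fitted libraries were compared with limma 3.58.1 in R 4.3.3 (lmFit, eBayes with trend) on log2(value + 1), with Benjamini-Hochberg adjustment over all genes tested. This scale understates changes of low genes. Interactions were fitted over 4 groups (15 libraries). In exact permutation tests of 4 against 4 libraries the smallest two-sided P is 0.029, reached where groups do not overlap. On simulated data for this comparison (16295 genes), 49.5% of genes changed 2-fold (a log2 change of 1) and 100% at a log2 change of 2 were called, with 5 false calls. The simulation gave every gene the same dispersion and held no library that stood apart, so these shares may not hold for the real libraries.

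Named genes are *BAF1*, *BES1*, all BR synthesis and BR-regulated helix-loop-helix genes, up to 4 called genes with the smallest P of each other list, the 10 largest rises and falls without overlap, and 3 genes per direction of each interaction. The members and lists were chosen with earlier results of these data known. RefSeq matched 32548 of 32833 identifiers. Alternatives covered the pseudocount, the filter, the scaling, the libraries fitted, the block and leaving out each library. Authors' read counts were not used here.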

Additional observations from a re-analysis of the deposited data

Results flagged for a closer look

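In 146 groups of 4 *baf1* libraries (named genes, marker sums and the first principal component), 11 had 1 library further from the other 3 than Dixon's 95% critical value allows, where chance gives about 1 in 20. Without BRZ these were *CPD* (338 in replicate 3, others 276 to 286), *FER1* (664 in replicate 4, others 610 to 616), *DIN11* (15.8 in replicate 1, others 21 to 21.7), *SESA3* (92.6 in replicate 1, others up to 0.237) and the summed seed storage transcripts (482 in replicate 1, others 4.44 to 30.3). With BRZ, replicate 4 was apart in *CYP90D1* (48.4, others 34 to 36.3), *BEE3* (44.9, others 138 to 145), *XTH4* (445, others from 962) and the first principal component (55.7). *AOC2* in replicate 2 (308, others 328 to 332) and *AT5G35525* in replicate 3 (16.1, others 10.09 to 10.4) were also apart.

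The BRZ response differed between *baf1* and *bes1-D* by the interaction test in 28 genes. The named ones differed, *baf1* minus *bes1-D* on the log2 scale, by 1.58 (*AT5G01740*), 1.36 (*DWF4*), 0.85 (*AT4G29905*), -2.29 (*AT5G35525*), -1.37 (*AT1G66100*) and -1.14 (*AT5G40450*).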

How the results depend on the processing

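Of 52 named genes called in *baf1*, all 52 kept their direction under every alternative run for them, and 7 (*DWF4*, *TIP2-3*, *SAUR21*, *AT4G33550*, *AT5G01740*, *AT5G35525* and *AT1G66100*) were called under each that tested them. The 295 calls in *baf1* became 23 with no filter, 182 with a fold change above 1.5 and 127 at an adjusted P under 0.01. They ranged from 157 (without BRZ0 replicate 4) to 557 (without BRZ250 replicate 4) when 1 library was left out. The log2 fold change of *DET2* ranged from -0.0302 (without BRZ0 replicate 1) to 0.231 (without BRZ0 replicate 4) and was never called. That of *BEE3* was -0.0088 without BRZ250 replicate 1, -0.0207 without replicate 2 and 0.535 without replicate 4, and was called only in the last. The interaction with WT gave 1 call with no filter and 0 under every other alternative. The 28 calls of the interaction with *bes1-D* became 12 with no filter and ranged from 8 to 179 when 1 library was left out, and more of them were positive than negative without *baf1* BRZ250 replicate 4 (113 of 179) or *bes1-D* BRZ250 replicate 1 (24 of 41). The cause of these moves was not tested.

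Deviations from the group means correlated at 0.0121, -0.21, 0.129 and -0.0406 between same-numbered libraries. Differently numbered ones gave -0.217 to 0.252. These values do not show pairing by replicate number and cannot exclude it, and the labels do not state it, so the main fit used no pairing. With the replicate block, 200 genes were called in *baf1* (94 higher), 0 in the interaction with WT and 2 in that with *bes1-D*, and 12 of the 52 named calls were lost. Depth limits genes of few reads, since 16382 of 32833 genes were tested.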

Other observations

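Further gene groups were chosen after their values were seen, so their counts are a description. Of 23 Calvin cycle genes, all tested, 6 fell under BRZ in *baf1* and none rose (background 0.885% lower), with a median log2 fold change of -0.31 over the list, as against 0.006 over all genes. *GAPB*, a subunit of the glyceraldehyde-3-phosphate dehydrogenase of the chloroplast, fell from a mean of 2473 to 1724 normalized reads (adjusted P = 0.00267, limma), *FBA1*, a plastid aldolase, from 1270 to 907, and *RBCS2B*, a Rubisco small subunit, from 4823 to 3275. Of 14 tested photorespiration genes, 4 fell and none rose (background 0.885% lower), with a median of -0.35. They were *GLDP1*, of the glycine decarboxylase complex of mitochondria (2638 to 1638), *CAT2*, the peroxisomal catalase (1582 to 1133), *GOX1* and *SHM1*. The medians of these lists were -0.14 and -0.14 in WT and -0.25 and -0.12 in *bes1-D*. Without BRZ250 replicate 4 they were -0.21 and -0.32 in *baf1*, with 6 and 6 genes called lower.

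Of 40 tested arabinogalactan proteins, cell surface glycoproteins that include the fasciclin-like ones, 6 fell and 1 rose (background 0.885% and 0.916%), with a median of -0.24 in *baf1*, -0.25 in WT and -0.26 in *bes1-D*, where 4 and 4 members were called lower. Without BRZ250 replicate 4 the median in *baf1* was -0.08, with 9 called lower and 1 higher. *FLA9* fell from 1070 to 582 and *AGP21* from 2375 to 1579, while *AGP30* rose from 316 to 608. *XTH7*, which was not on the list of XTH genes above, fell from 1133 to 587 (adjusted P = 0.00747, limma). Among 35 tested genes with identifiers from AT2G07660 to AT2G07840, a stretch of chromosome 2 that holds an insertion of mitochondrial DNA, 7 rose and none fell (background 0.916% and 0.885%), with a median of 0.41 in *baf1*, 0.29 in WT and 0.37 in *bes1-D*. In WT 0 of these genes were called, and in *bes1-D* 3 were called higher. The largest rise of these was that of *AT2G07671*, annotated as an ATP synthase subunit, from 89 to 220. None of the 152 genes of the mitochondrial genome in the table reached a mean of 10, and reads from that genome and from its copy in the nucleus may not be told apart.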
